A study of Homo sapiens with 6 samples.

Results

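The tripartite motif (TRIM) proteins form one of the largest families of RING-type ubiquitin ligases, and the genes described here are all those listed in the count table of BT-549 cells whose symbol is TRIM followed by a number only. This rule found 66 genes among the 37887 listed. Of these 66, 49 (74.2%) had enough reads to be tested, and 39 of them had a mean of at least 1 CPM, the read count scaled to the size of its library. The remaining 17 were scarce or absent: 8 (TRIM15, TRIM31, TRIM40, TRIM48, TRIM49, TRIM51, TRIM64 and TRIM77) had no read in any library, and 9 (TRIM10, TRIM29, TRIM34, TRIM42, TRIM43, TRIM50, TRIM54, TRIM60 and TRIM72) had reads but too few for the test. The cells, BT-549, are a human cell line grown from a triple-negative breast cancer, and mRNA was sequenced from 3 control and 3 IRF1shRNA samples to ask which genes depend on IRF1, which activates transcription when interferon (IFN) signals. The control samples received 0.1% DMSO, and the samples silenced for IRF1 with a short hairpin RNA (shRNA) received 500 ng/ml doxycycline. By their titles the control samples carry a control shRNA, but the series text speaks of one line with an inducible IRF1 shRNA. No control received doxycycline, so effects of the drug and of the shRNA cannot be told apart. Nothing beyond culture in triplicate says whether the samples were independent, so the p-values measure the spread among these samples.

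A TRIM protein typically carries, from its N-terminus, a RING domain that recruits a ubiquitin-charged E2 enzyme, a B-box and a coiled coil through which it dimerizes. The C-terminal domain then selects what is bound, and is most often a PRY/SPRY fold that recognizes protein ligands such as a retroviral capsid or an antibody. Many PRY/SPRY members are induced by IFN and either block viruses directly or adjust the signaling of RIG-I, MDA5 and Toll-like receptors, while other branches of the family control transcription, microtubules or muscle turnover. IRF1 and its relatives bind repeats of GAAA in the promoters of IFN-stimulated genes, a layout called the IFN-stimulated response element.

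To show what such a layout looks like in this family, the windows from 250 bases before to 50 bases after the annotated start (RefSeq, GRCh38.p14) were searched on both strands for GAAA, any 2 bases and GAAA. Windows were present in the table for 52 of the 66 members, and TRIM22 was among the 14 without one. The pattern occurred in 9 of 52 members (17.3%) and in 996 of all 27305 promoters (3.65%). The stretches below were chosen because 4 of them precede or begin a gene that fell after IRF1 silencing, with 1 (TRIM44) from a gene that rose. They run 5′ to 3′ on the strand of the gene, with the matching bases in capitals. The first 4 end at the base before the start, and the stretch of TRIM21 covers bases 10 to 39 after it. They lie at chr9:98119223-98119372 on the minus strand for TRIM14, chr11:5685075-5685224 on the minus strand for TRIM5, chr15:44736378-44736527 on the plus strand for TRIM69, chr11:35662625-35662774 on the plus strand for TRIM44 and chr11:4393663-4393692 on the minus strand for TRIM21.
TRIM14: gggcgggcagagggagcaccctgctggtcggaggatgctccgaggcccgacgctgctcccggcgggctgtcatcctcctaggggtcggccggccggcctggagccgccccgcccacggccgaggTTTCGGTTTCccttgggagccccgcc
TRIM5: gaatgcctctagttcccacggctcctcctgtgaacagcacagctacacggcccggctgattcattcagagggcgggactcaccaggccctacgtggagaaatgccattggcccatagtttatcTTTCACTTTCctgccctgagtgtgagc
TRIM69: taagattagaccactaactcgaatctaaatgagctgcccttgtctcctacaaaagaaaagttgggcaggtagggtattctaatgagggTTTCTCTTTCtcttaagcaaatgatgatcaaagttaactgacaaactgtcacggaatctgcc
TRIM44: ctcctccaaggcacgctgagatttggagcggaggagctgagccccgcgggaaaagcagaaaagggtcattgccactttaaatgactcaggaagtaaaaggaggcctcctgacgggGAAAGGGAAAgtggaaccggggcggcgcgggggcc
TRIM21: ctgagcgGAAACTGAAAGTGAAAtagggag
TRIM14 and TRIM5 each held the pattern on the strand opposite to the gene, starting 26 and 27 bases before the start. TRIM21 held 2 overlapping matches that share a GAAA.

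The libraries held 55143808 to 160436234 counts, and 3 counts corresponded to 0.0182 to 0.054 CPM, so a TRIM gene without a read may still have been transcribed below that level. The shallowest library was IRF1shRNA replicate 2. Replicates of a group differed by more than sampling noise, so no library was a copy of another. VIM and CDH2, which mark mesenchymal breast cancer lines, stood at 593 to 945 and 223 to 255 CPM, whereas the epithelial genes CDH1 and EPCAM, the receptors ESR1 and PGR, the leukocyte gene PTPRC and the endothelial gene PECAM1 were all below 1 CPM. ERBB2 stood at 35.0 to 54.8 CPM. VIM (−0.56) and ERBB2 (−0.48) were lower in IRF1shRNA on the log2 scale, and what part this had in the results was not tested. IRF1 itself stood at 45.3, 48.1 and 51.5 CPM in control and 13.8, 14.9 and 14.6 CPM in IRF1shRNA. Its log2 fold change was −1.74 (SE 0.06, adjusted p = 4.53e-13) in the quasi-likelihood test of edgeR, adjusted by Benjamini-Hochberg over all genes. Every adjusted p given here is from this test unless another test is named beside it. In bulk RNA, fewer cells that express a gene and less of its RNA per cell cannot be told apart.

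After IRF1 silencing, more TRIM genes were lower than higher. Of the 49 members tested, 25 (51.0%) were lower at an adjusted p under 0.05, against 26.4% of all 18851 genes tested. Higher levels were called for 14 members (28.6%), against 24.1% of all genes. By more than 2-fold, 7 members (14.3%) fell, against 4.43% of all genes, and 3 (6.12%) rose, against 3.43%. The remaining 10 members did not pass the test. The 3 samples of one group lay entirely above or below those of the other for 41 of the 49 members (83.7%), against 56.8% of all genes. The median log2 fold change was −0.19 for the members and −0.0024 for all genes, and the median absolute log2 fold change was 0.43 and 0.28. These values describe the family and were not compared by a test. The filter on low counts also shaped them, because 3 members (TRIM22, TRIM63 and TRIM39) had enough reads only in control and 4 (TRIM55, TRIM71, TRIM73 and TRIM74) only in IRF1shRNA. Among the 42 members that had enough reads in both groups, 23 were lower, 11 were higher and 8 did not pass, with 5 lower and 0 higher by more than 2-fold. Outside the list of IFN-associated TRIM genes described below, 40 members were tested. Of these 40, 17 were lower, 14 were higher and 9 did not pass, with a median log2 fold change of −0.13. By more than 2-fold, 2 of them fell and 3 rose.

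**Figure D1:**
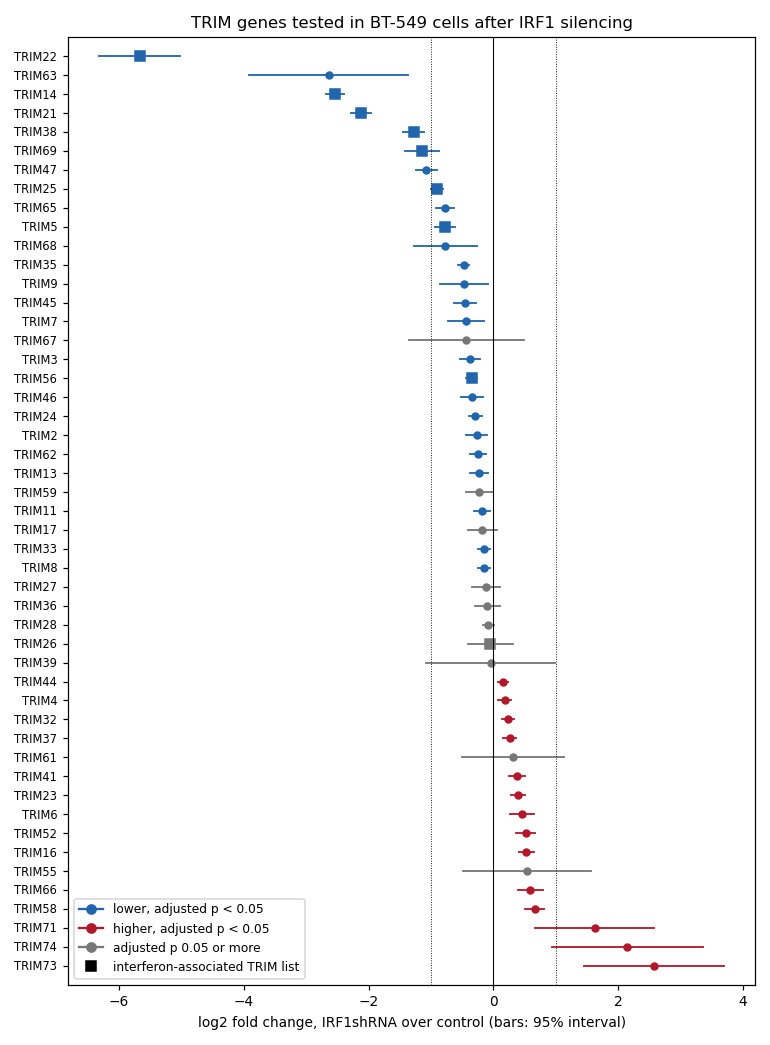
Log2 fold change of IRF1shRNA over control (horizontal axis) for each of the 49 TRIM genes tested, with bars for the 95% interval, dotted lines at 2-fold, squares for the list of IFN-associated TRIM genes and colors for the call. TRIM22 lies farthest to the left at −5.67, and the 3 points beyond 2-fold on the right (TRIM71, TRIM74 and TRIM73) have wide intervals.

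Most tested members on a list of IFN-associated TRIM genes were lower. This list of 11 genes held 9 that could be tested, of which 8 were lower, 0 were higher and 1 (TRIM26) did not pass. It had 5 genes lower by more than 2-fold and a median log2 fold change of −1.15. Over all genes tested, 26.4% were lower, 24.1% were higher and 4.43% were lower by more than 2-fold. One of the 5, TRIM22, had enough reads for the test only in control. The list was drawn up with earlier results of these data known, so this count is a description and not independent evidence of a direction. The other 2 listed genes were TRIM31, with no read, and TRIM34, with 5 reads in all. Members outside the list can also act in IFN or RNA-sensor signaling, such as TRIM6, which was higher, and TRIM65, which was lower.

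TRIM22, an IFN-induced factor that restricts viral transcription, showed the largest fall. It stood at 3.08, 4.81 and 6.47 CPM in control and 0.0952, 0.144 and 0.0729 CPM in IRF1shRNA, from 379, 590 and 965 reads in control and 12, 8 and 12 in IRF1shRNA. Every silenced sample lay far below every control, although the controls themselves were spread widely, with a coefficient of variation (CV, the SD as a percentage of the mean) of 35.5%. The group means were 4.79 ± 1.699 CPM in control and 0.104 ± 0.0364 CPM in IRF1shRNA (± SD, n = 3), so that 2.17% of the control level was left. The log2 fold change was −5.67 (SE 0.31, adjusted p = 8.84e-11). TRIM22 had enough reads only in control, so it entered the test only through the group in which it was higher.

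TRIM14, an adaptor at mitochondria that passes on the RIG-I signal and itself lacks a RING domain, stood at 56.03, 65.2 and 67.4 CPM in control and 10.5, 10.6 and 11.2 CPM in IRF1shRNA. The silenced samples were tightly grouped and well below the controls. Its level was 17.2% of control, with a log2 fold change of −2.54 (SE 0.07, adjusted p = 1.66e-14). TRIM21, a cytosolic receptor for antibody-coated viruses, stood at 13.2, 13.5 and 14.02 CPM in control and 3.02, 3.22 and 3.14 CPM in IRF1shRNA. Both groups were narrow and did not overlap, at 23.1% of control and a log2 fold change of −2.12 (SE 0.08, adjusted p = 6.36e-13).

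TRIM38, which tempers Toll-like receptor and cytokine signaling, stood at 8.41, 8.57 and 9.14 CPM in control and 3.52, 3.69 and 3.59 CPM in IRF1shRNA, a log2 fold change of −1.28 (SE 0.08, adjusted p = 7.16e-10). TRIM69, a PRY/SPRY protein that restricts vesicular stomatitis virus, stood at 2.71, 2.66 and 3.01 CPM in control and 1.397, 1.12 and 1.22 CPM in IRF1shRNA, a log2 fold change of −1.15 (SE 0.13, adjusted p = 8.62e-07). Both genes remained detectable in every silenced sample, at 41.4% and 44.6% of control, and neither had overlapping groups.

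TRIM25, the ligase known for ubiquitinating RIG-I, was among the most abundant members and stood at 173, 176 and 184 CPM in control and 90.2, 100.2 and 94.9 CPM in IRF1shRNA. All 3 silenced samples were lower than the lowest control, and the log2 fold change was −0.90 (SE 0.05, adjusted p = 4.85e-11). TRIM5, the restriction factor that binds retroviral capsids, stood at 10.3, 11.2 and 11.8 CPM in control and 6.58, 6.34 and 6.57 CPM in IRF1shRNA, a log2 fold change of −0.78 (SE 0.08, adjusted p = 1.86e-07). TRIM56, which acts in double-stranded RNA and cytosolic DNA signaling, stood at 92.3, 96.5 and 94.95 CPM in control and 71.5, 75.3 and 76.1 CPM in IRF1shRNA. Its fall was small but the groups were separate, with a log2 fold change of −0.35 (SE 0.04, adjusted p = 2.35e-06).

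TRIM26, a PRY/SPRY ligase that targets the IFN regulator IRF3, stood at 11.1, 20.98 and 14.5 CPM in control and 17.4, 16.4 and 11.4 CPM in IRF1shRNA. The groups overlapped over most of their range, and no direction could be read. The log2 fold change was −0.05 (SE 0.17, adjusted p = 0.845), with a 95% interval of −0.41 to 0.32, which holds changes of either sign. Its CV was 32.3% in control and 21.6% in IRF1shRNA, and its fitted value turned positive without control replicate 2 (0.23) or without IRF1shRNA replicate 3 (0.13).

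**Figure D2:**
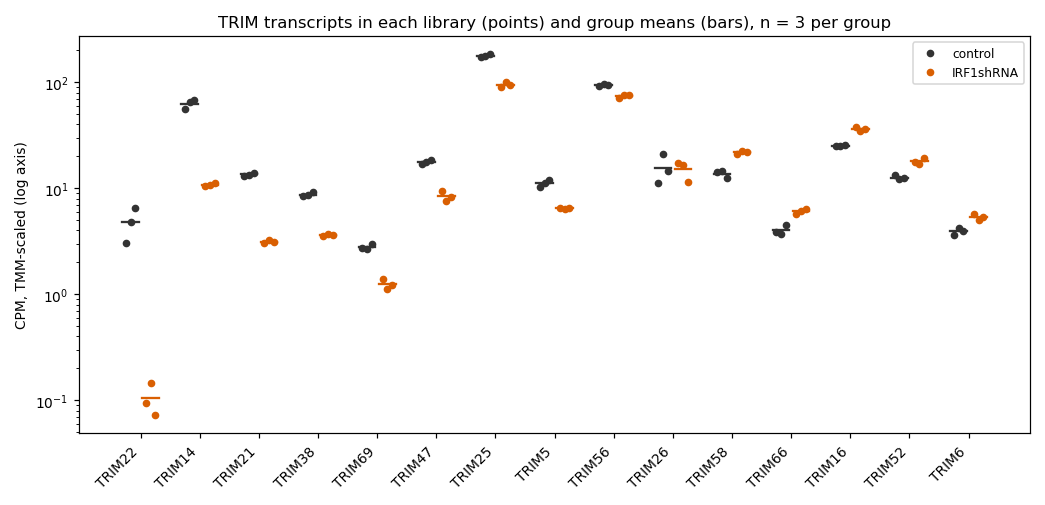
TMM-scaled CPM (vertical log axis) of 15 TRIM genes in each library, with points for the 3 control and 3 IRF1shRNA samples and bars for the group means. The points of the first 9 genes fall from control to IRF1shRNA without overlap, those of TRIM26 intermix, and those of the last 5 genes lie higher in IRF1shRNA.

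A cluster on chromosome 11 holds TRIM6 (chr11:5596109-5612958), TRIM34 (chr11:5619764-5644398), TRIM5 (chr11:5663557-5938619) and TRIM22 (chr11:5689689-5737089) in GENCODE 29 (GRCh38), all on the plus strand except TRIM5, whose annotated extent encloses TRIM22. These 4 PRY/SPRY relatives did not share 1 direction. TRIM22 fell to 2.17% of control and TRIM5 to 58.4%, whereas TRIM6 rose to 137% and TRIM34 was close to absent, with 0, 0 and 3 reads in control and 1, 0 and 1 in IRF1shRNA. TRIM6, which builds free ubiquitin chains used in IFN signaling, stood at 3.61, 4.203 and 3.93 CPM in control and 5.73, 4.97 and 5.39 CPM in IRF1shRNA, a log2 fold change of 0.46 (SE 0.09, adjusted p = 4.87e-04). The read-through gene TRIM6-TRIM34 shares 29.3% of the exon bases of TRIM6 and 83% of those of TRIM34, and it was listed with 0 reads in every library. Reads shared by such genes may have been set aside in counting, so the low value of TRIM34 is uncertain. Of all 8 members on chromosome 11 that were tested, 5 were lower and 3 were higher, against 26.4% and 24.1% of all genes.

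A group of members on the short arm of chromosome 6 lies in and beside the major histocompatibility complex. TRIM31 (chr6:30102897-30113106), TRIM40 and TRIM15 had no read, and TRIM10 had 2 reads in all. TRIM39 (chr6:30326479-30343729) stayed at or below 0.131 CPM in every library. TRIM27 (chr6:28903002-28923989), which was named after its values were seen, stood at 28.8, 27.5 and 22.04 CPM in control and 19.8, 25.6 and 26.8 CPM in IRF1shRNA, and its groups overlapped. Neither TRIM27 (log2 fold change −0.12, SE 0.10, adjusted p = 0.374) nor TRIM39 (−0.05, SE 0.49, adjusted p = 0.950) passed the test. TRIM39 shares 29.5% of its exon bases with the read-through gene TRIM39-RPP21, which was listed at 0 throughout. TRIM38 (chr6:25962802-25991226), also on this arm, was the one tested member there that fell.

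TRIM47 was the only member outside the IFN-associated list, at a mean of 1 CPM or more, that fell by more than 2-fold. This PRY/SPRY ligase stood at 17.1, 17.7 and 18.6 CPM in control and 9.405, 7.66 and 8.21 CPM in IRF1shRNA, a log2 fold change of −1.07 (SE 0.08, adjusted p = 4.80e-09). The silenced samples were all below the controls. An annotated antisense gene covers 51.5% of the exon bases of TRIM47, and whether the counting used strand is not given in the sources used here. TRIM65, which lies beside it on chromosome 17, is known for ubiquitinating the RNA sensor MDA5. It was named after its values were seen, and stood at 25.9, 27.9 and 28.3 CPM in control and 16.3, 14.4 and 16.99 CPM in IRF1shRNA, a log2 fold change of −0.78 (SE 0.07, adjusted p = 5.69e-08).

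The levels of the members differed widely, and levels are compared between genes here only as CPM per kilobase of annotated exon. TRIM28, the corepressor that KRAB zinc finger proteins recruit to silence retroelements, was by far the most abundant at 100.1 in control and 94.7 in IRF1shRNA. By mean over all libraries it was followed by TRIM25 (18.7 and 10.01), TRIM33 (12.1 and 10.8), TRIM35 (13.3 and 9.53) and TRIM8 (11.99 and 10.8). The order differed between groups: in IRF1shRNA, TRIM32 (10.3 in control and 12.1 in IRF1shRNA) and TRIM44 (10.5 and 11.7), named here after their values were seen, followed TRIM28. TRIM14 had a length-scaled level of 11.5 in control, close to that of TRIM33 and TRIM8, and of 1.97 in IRF1shRNA. TRIM22 was a minor member before silencing, at 0.795, and was at 0.0173 after it.

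**Figure D3:**
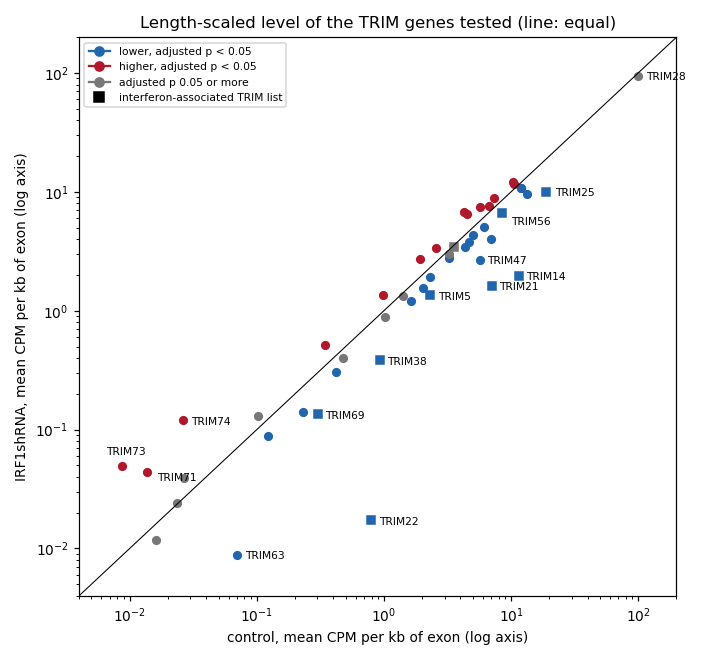
Mean length-scaled level (CPM per kilobase of exon, log axes) of each tested TRIM gene in control (horizontal) and IRF1shRNA (vertical), with a diagonal at equal levels, squares for the IFN-associated list and colors for the call. TRIM28 lies alone at the upper right near the diagonal, and TRIM14, TRIM21 and TRIM22 lie well below it.

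In CPM, TRIM28 stood at 389.8, 396 and 425 CPM in control and 378, 387 and 382 CPM in IRF1shRNA. The silenced samples were all below the controls by a small margin that did not pass the test, with a log2 fold change of −0.08 (SE 0.04, adjusted p = 0.150) and a 95% interval of −0.17 to 0.01. TRIM28 is one of 4 members with a PHD finger and a bromodomain, domains that in many proteins, though not in all, read histone tails. This branch did not move as a unit. TRIM24, a coregulator of nuclear receptors, stood at 44.8, 42.3 and 41.5 CPM in control and 35.5, 36.1 and 33.8 CPM in IRF1shRNA, a log2 fold change of −0.29 (SE 0.05, adjusted p = 1.38e-04). TRIM33, which acts in SMAD signaling, stood at 121, 115 and 109.9 CPM in control and 103, 101 and 107 CPM in IRF1shRNA. Its groups did not overlap, at a log2 fold change of −0.15 (SE 0.05, adjusted p = 0.00883), a call that was lost with upper-quartile scaling (adjusted p = 0.0548), with library size alone (0.0821) and without control replicate 1 (0.0507). TRIM66, the corepressor of this branch that lacks a RING domain, rose instead: it stood at 3.86, 3.72 and 4.49 CPM in control and 5.67, 6.16 and 6.35 CPM in IRF1shRNA, a log2 fold change of 0.59 (SE 0.09, adjusted p = 4.86e-05).

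TRIM35, which binds the glycolytic enzyme pyruvate kinase M2, stood at 56.9, 56.8 and 56.3 CPM in control and 41.7, 39.8 and 40.6 CPM in IRF1shRNA. Both groups were narrow and separate, at a log2 fold change of −0.48 (SE 0.04, adjusted p = 7.20e-08). TRIM8, a regulator of cytokine signaling without a C-terminal domain, stood at 108, 119 and 117 CPM in control and 104, 97.8 and 107 CPM in IRF1shRNA, a log2 fold change of −0.15 (SE 0.05, adjusted p = 0.0153). The groups of TRIM8 were separated by less than 1 CPM, and 5 alternatives ended the call: upper-quartile scaling (adjusted p = 0.079), library size alone (0.105) and leaving out control replicate 2 (0.114), control replicate 3 (0.0501) or IRF1shRNA replicate 2 (0.0945).

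The members that rose at a mean of 1 CPM or more did so by less than 2-fold. TRIM58, which promotes loss of dynein in maturing red cells, stood at 14.2, 14.5 and 12.5 CPM in control and 20.9, 22.3 and 22 CPM in IRF1shRNA, a log2 fold change of 0.66 (SE 0.07, adjusted p = 4.68e-07). TRIM16, which acts in autophagy of damaged membranes and lacks a RING domain, stood at 25, 24.8 and 25.8 CPM in control and 37.8, 34.9 and 36.4 CPM in IRF1shRNA, a log2 fold change of 0.53 (SE 0.05, adjusted p = 2.96e-07). In both genes every silenced sample exceeded every control. TRIM16 has a shorter near copy, TRIM16L, that stood at 38.9, 40.4 and 41.4 CPM in control and 84.5, 84.96 and 78.9 CPM in IRF1shRNA, so reads that fit both could move between them. A same-strand gene, AC005324.3, covers 23.5% of the exon bases of TRIM16, and reads there may have been set aside in counting. TRIM52, whose RING domain carries an unusually long acidic loop, stood at 13.2, 12.2 and 12.4 CPM in control and 17.8, 16.9 and 19.4 CPM in IRF1shRNA, a log2 fold change of 0.52 (SE 0.07, adjusted p = 7.64e-06). An opposite-strand gene, CTC-338M12.4, covers 28.5% of the exon bases of TRIM52, and its reads cannot be told apart from those of TRIM52 without a known strand setting. TRIM52-AS1, which lies beside TRIM52 and shares no bases with it, was also higher (0.41, SE 0.08, adjusted p = 2.41e-04).

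Changes over 2-fold also occurred among members near the limit of detection. TRIM63, a ligase that breaks down muscle protein, had 22, 30 and 18 reads in control and 4, 0 and 6 in IRF1shRNA, a log2 fold change of −2.64 (SE 0.60, adjusted p = 0.00135). TRIM71, a stem cell protein of the NHL class and a target of the let-7 microRNA, had 26, 10 and 10 reads in control and 39, 31 and 47 in IRF1shRNA, a log2 fold change of 1.62 (SE 0.45, adjusted p = 0.00606). The groups did not overlap in CPM for either gene, but all values were below 0.6 CPM. TRIM73 had 4, 12 and 2 reads in control and 34, 13 and 53 in IRF1shRNA (log2 fold change 2.57, SE 0.53, adjusted p = 5.69e-04). TRIM74 had 2, 9 and 4 reads in control and 15, 12 and 32 in IRF1shRNA (log2 fold change 2.15, SE 0.57, adjusted p = 0.00455). TRIM73 and TRIM74 are near-identical copies on chromosome 7, so how the counting divided their reads is uncertain. Single libraries moved these rises by more than 1.5-fold: the log2 fold change was 3.60 for TRIM73 and 2.92 for TRIM74 without control replicate 2, and 2.29 for TRIM71 without control replicate 1. All 3 of the higher genes had enough reads for the test only in IRF1shRNA. Tested against a 2-fold change rather than against no change, TRIM14, TRIM21 and TRIM38 passed among the members with enough reads in both groups. TRIM22 and TRIM73 (adjusted p = 0.0433) passed as well, but each entered the test only through the group in which it was higher.

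By C-terminal domain, the PRY/SPRY class held 35 of the 66 members and 23 of the 49 tested. Of these 23, 14 were lower, 5 were higher and 4 did not pass, with 6 lower by more than 2-fold and a median log2 fold change of −0.44. Those 6 were all on the IFN-associated list except TRIM47, and they include TRIM22, which had enough reads for the test only in control. Over all genes tested, 26.4% were lower, 24.1% were higher and 4.43% were lower by more than 2-fold. The 4 tested members with COS, fibronectin and PRY/SPRY domains, which bind microtubules, had 2 lower and 2 that did not pass. The 5 members with filamin or NHL repeats had 3 lower and 2 higher, and the 6 tested members without a C-terminal domain had 2 lower, 3 higher and 1 that did not pass. The 4 PHD and bromodomain members had 2 lower, 1 higher and 1 that did not pass. Of 2 tested COS members TRIM63 was lower and TRIM55 did not pass, and of 2 with a transmembrane segment TRIM13 was lower and TRIM59 did not pass. TRIM23, with an ARF domain, and TRIM37, with a MATH domain, were higher. Of the 4 tested members that lack a RING domain, TRIM14 was lower while TRIM16, TRIM44 and TRIM66 were higher. The classes were not compared by a test.

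**Figure D4:**
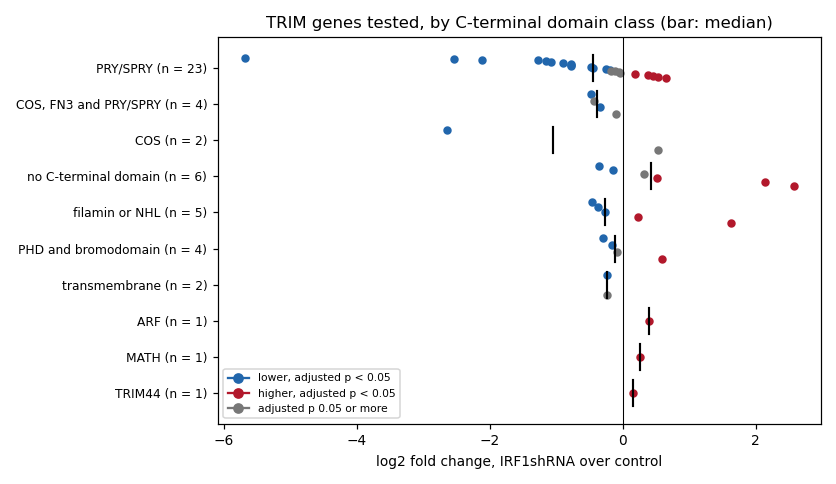
Log2 fold change of IRF1shRNA over control (horizontal axis) for the 49 tested TRIM genes grouped by C-terminal domain class (rows), with a bar at the median of each class and colors for the call. The points beyond 2-fold on the left are in the PRY/SPRY class except for TRIM63 of the COS class, and the points beyond 2-fold on the right are TRIM71 of the filamin or NHL class and TRIM73 and TRIM74 without a C-terminal domain.

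The remaining members were outside the naming rule and are named so that each is accounted for, after their values were seen. Among those lower, TRIM45 (−0.46), TRIM3 (−0.37), TRIM46 (−0.34), TRIM2 (−0.26), TRIM62 (−0.25), TRIM13 (−0.23) and TRIM11 (−0.19) had log2 fold changes between −0.46 and −0.19. TRIM7, known as a glycogenin-binding protein and named for its spread, stood at 3.07, 3.33 and 2.84 CPM in control and 1.78, 2.34 and 2.66 CPM in IRF1shRNA, with a CV of 19.7% in IRF1shRNA and a log2 fold change of −0.44 (SE 0.14, adjusted p = 0.0118). Its adjusted p rose to 0.0906 without IRF1shRNA replicate 1 and to 0.0609 without control replicate 2. TRIM68 stood at 0.779, 1.18 and 0.993 CPM in control and 0.444, 0.829 and 0.535 CPM in IRF1shRNA, and its groups overlapped although the test called it lower (−0.77, SE 0.24, adjusted p = 0.0118). The call of TRIM68 was lost when libraries were thinned to the smallest total (adjusted p = 0.241), without control replicate 2 (0.0751) and without IRF1shRNA replicate 1 (0.0748). TRIM9, a neuronal member, was called lower at a log2 fold change of −0.47 (SE 0.18, adjusted p = 0.0383), a call that was lost in DESeq2 (0.0882), with upper-quartile scaling (0.0603), with library size alone (0.0653) and without control replicate 2 (0.0754), control replicate 3 (0.167), IRF1shRNA replicate 1 (0.143) or IRF1shRNA replicate 2 (0.0656). TRIM11 lost its call with upper-quartile scaling (adjusted p = 0.0569), with library size alone (0.0776) and without control replicate 2 (0.0797), control replicate 3 (0.0804) or IRF1shRNA replicate 2 (0.0801). TRIM13 lost its call without IRF1shRNA replicate 3 (adjusted p = 0.0511).

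Among those higher, TRIM23 (0.39), TRIM41 (0.38), TRIM37 (0.26), TRIM32 (0.23), TRIM4 (0.18) and TRIM44 (0.16) had log2 fold changes between 0.16 and 0.39, and for each the 3 silenced samples exceeded the 3 controls. TRIM44 resembles a deubiquitinase more than a ligase. It stood at 139, 139 and 134 CPM in control and 151, 155 and 153 CPM in IRF1shRNA, the smallest rise that was called (0.16, SE 0.04, adjusted p = 0.00313). The members that did not pass and are not yet described were TRIM59 (log2 fold change −0.23, 95% interval −0.44 to −0.01), TRIM17 (−0.17, −0.41 to 0.06), TRIM36 (−0.10, −0.29 to 0.10), TRIM67 (−0.43, −1.35 to 0.49), TRIM61 (0.32, −0.50 to 1.14) and TRIM55 (0.54, −0.49 to 1.56). The last 3 had means of 0.150 ± 0.0128, 0.160 ± 0.0301 and 0.0828 ± 0.0299 CPM in control (SD, n = 3), and each of their intervals reaches past 2-fold in 1 direction.

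The matches to the GAAA layout can be set beside these values. Of the 9 members with a match, TRIM14, TRIM21, TRIM69, TRIM5 and TRIM2 were lower, TRIM44 and TRIM16 were higher, TRIM26 did not pass and TRIM34 was not tested. Among tested members with a promoter in the table, 5 of 18 lower genes (27.8%), 2 of 13 higher genes (15.4%) and 1 of 7 that did not pass (14.3%) held the pattern. Across all genes the shares were 143 of 3676 lower (3.89%), 73 of 3439 higher (2.12%) and 145 of 5310 that did not pass (2.73%). Of the members lower by more than 2-fold, 3 of 6 held it, against 56 of 549 such genes in all (10.2%). TRIM38 and TRIM47 had none in the window, which says only that these letters were absent from it. A second pattern, TTCNNNGAA, the layout bound by STAT dimers, occurred in 7 of 52 members (13.5%) and in 7.88% of all promoters, and 4 of those 7 (TRIM15, TRIM40, TRIM49 and TRIM64) had no read. Among tested genes it occurred in 3 of 38 members (7.9%) and in 6.59% of all genes, and in 0 of the 6 members lower by more than 2-fold. A match is a run of letters and not a measured binding site, and these shares were not tested.

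**Figure D5:**
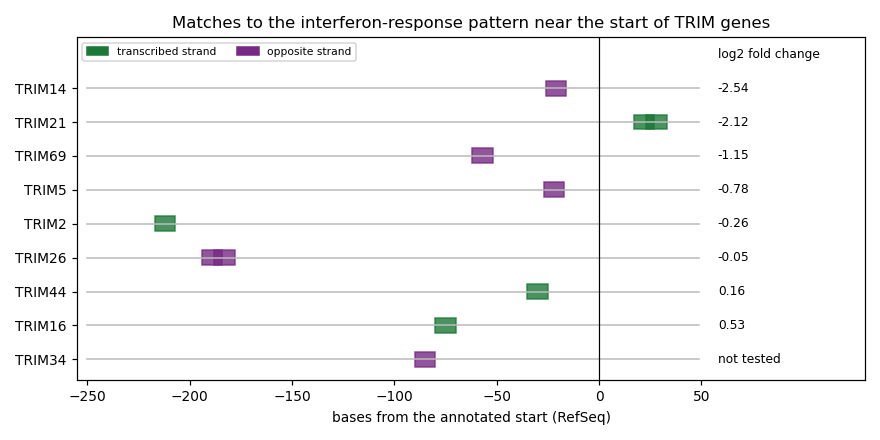
Position of each match to GAAA, any 2 bases and GAAA (boxes, colored by strand) in the window around the annotated start of the 9 TRIM genes that hold one, with the horizontal axis in bases from the start and the log2 fold change printed at the right. TRIM14, TRIM69, TRIM5 and TRIM21 have matches within 62 bases of the start, and so does TRIM44, which rose.

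The genes that act with TRIM ligases were followed on lists drawn up in the same way. E2 enzymes and E2 variants attach ubiquitin or the ubiquitin-like ISG15 together with RING ligases. Of 13 on the list, 5 were lower, 2 were higher and 6 did not pass, with a median log2 fold change of −0.06. Over all genes tested, 26.4% were lower, 24.1% were higher and 4.43% were lower by more than 2-fold. UBE2L6, the E2 for ISG15, stood at 35.3, 38.8 and 47.3 CPM in control and 4.21, 4.29 and 4.37 CPM in IRF1shRNA, a log2 fold change of −3.24 (SE 0.10, adjusted p = 4.34e-14). UBE2D1, a common partner of TRIM RING domains, was lower at −0.81 (SE 0.08, adjusted p = 2.55e-07), while UBE2D4 was higher at 1.42 (SE 0.05, adjusted p = 5.19e-13). UBE2D2, UBE2D3 and UBE2N, which also work with TRIM ligases, did not pass, at log2 fold changes of −0.05, −0.06 and −0.05. UBE2L6 was the 1 E2 of 13 that fell by more than 2-fold.

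Of 11 other ubiquitin or ISG15 ligases, or subunits of ligase complexes, of the IFN response, 7 were lower, 1 was higher and 3 did not pass. Their median log2 fold change was −0.49. For this list and the next, the shares over all genes were 26.4% lower, 24.1% higher and 4.43% lower by more than 2-fold. HERC5, the main ISG15 ligase in human cells, stood at 35.5, 35.6 and 42.1 CPM in control and 8.93, 8.77 and 8.54 CPM in IRF1shRNA, a log2 fold change of −2.11 (SE 0.07, adjusted p = 3.94e-13). HERC6 (−3.85) and DTX3L (−2.06) also fell by more than 2-fold, while RNF135, the RIG-I ligase called Riplet, was at −0.49. The 1 higher gene was RNF114 (0.18, SE 0.04, adjusted p = 0.00255), and RNF31, RNF125 and SHARPIN did not pass. Of 8 tripartite motif genes with other names, 6 could be tested, of which 3 were lower and 3 did not pass. PML, which builds nuclear bodies, stood at 88.99, 93.7 and 103 CPM in control and 56.1, 50.9 and 58.1 CPM in IRF1shRNA, a log2 fold change of −0.79 (SE 0.06, adjusted p = 3.63e-09). MID1, a microtubule-bound ligase, was lower at −0.41 (SE 0.04, adjusted p = 3.28e-07).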

How the data were processed

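RNA-seq of 3 control and 3 IRF1shRNA samples of BT-549 cells was analyzed from a table of gene counts that the authors deposited, with no normalization applied. The submitters' processing notes name CASAVA 1.8.2, STAR 2.7.9a, featureCounts, DESeq2 1.24.0 and GRCh38.p7. The strand setting and annotation release are not given in the sources used here. Between 72.1% and 75.2% of the counts per library were even, as when both mates of a pair are counted, so halved counts were tried as an alternative. Reads that fit several genes may have been dropped, which lowers close copies.

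All genes were fitted in edgeR 4.0.16 (R 4.3.3) with TMM scaling, the filterByExpr filter at a minimum count of 10 and the quasi-likelihood test between groups, and p-values were adjusted by Benjamini-Hochberg over 18851 genes (threshold 0.05). CPM values are TMM-scaled, SE values were derived from the test statistic, and 95% intervals used its degrees of freedom. Exon lengths and positions came from GENCODE 29, and promoter sequences from RefSeq on GRCh38.p14. The script was tested on simulated data.

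Members and lists were chosen with earlier results of these data known. Named members were those past 2-fold, the 5 largest changes each way at 1 CPM or more, the tested IFN-associated members, the PHD and bromodomain members, the 5 most abundant per length and those with the widest spread. Alternatives were DESeq2 1.42.0, other scalings and filters, halved or thinned counts, a stricter threshold, a test against a 2-fold change, the replicate block and leaving out each sample.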

Additional observations from a re-analysis of the deposited data

How the results depend on the processing

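Over all alternatives in which a member was still tested, 681 of 715 values of single members had the same direction and the same call. Of the others, 26 lost a call and 8 changed sign, and the cause was not tested. Members that an alternative left untested are not counted in these values. TRIM63 and TRIM74 were each tested in 12 of 15 alternatives, and TRIM63 was not tested with halved or thinned counts. With halved counts, 6 members were lower and 2 were higher by more than 2-fold, and 17066 genes were tested in place of 18851. The shares of all genes called were not computed under the alternatives. The counts of members under them therefore cannot show whether a change was particular to the family. The count of lower members ranged from 19 (adjusted p under 0.01) to 25 and was 21 with upper-quartile scaling and with library size alone, settings that moved the median of all genes to 0.041 and 0.049. Without control replicate 2 it was 20. The higher members over 2-fold numbered 0 when at least 1 CPM in at least 3 samples was required, since all 3 are scarce, and 1 when tested against a 2-fold change, which also left 4 lower members. Leaving out single samples gave 1 to 3 higher E2 enzymes (1 without IRF1shRNA replicate 1) and a median of the members from −0.244 (without IRF1shRNA replicate 3) to −0.177. Sign changes concerned members that never passed the test. On leaving out single samples, the log2 fold change ranged from −0.24 (without control replicate 1) to 0.23 (without control replicate 2) for TRIM26, from −0.17 to 0.23 (without IRF1shRNA replicate 3) for TRIM39 and from −0.22 to 0.0069 (without IRF1shRNA replicate 1) for TRIM27. With library size alone it was 0.0040 for TRIM26 and 0.0073 for TRIM39, and with the replicate block it was 0.0075 for TRIM39. The labels link samples of the groups only by a replicate number. Deviations of same-numbered samples correlated at −0.0543, 0.0435 and 0.0731 over all genes and at −0.267, 0.241 and −0.0217 over the members tested. These correlations cannot show whether same-numbered samples shared a culture or a day. With the replicate block, 14 members were higher and 25 lower, and the median was −0.189. Of the 10 tested members with a mean under 1 CPM, 3 were lower, 3 were higher and 4 did not pass. Over all genes tested, 26.4% were lower and 24.1% were higher. What part depth had in these calls was not tested.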
